A study of Nannospalax ehrenbergi and Mus musculus with 14 samples.

Results

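The miR-322, miR-503, miR-351, miR-542 and miR-450 genes lie next to each other on the mouse X chromosome. They were followed here in the tumors of *Spalax*, the blind mole rat, and of mice. The rule for the members used names and no measured value, though it was set with earlier results of these data known: every microRNA whose name without its arm is miR-322, miR-503, miR-351, miR-542, miR-450a or miR-450b, with or without a copy number. This gave 13 of the 1326 microRNA names in the deposited tables, from 7 hairpins. All animals had received a single subcutaneous injection of the carcinogen 3-methylcholanthrene (3MCA) in the left side of the neck. The dose was 1 mg in 500 µl for *Spalax* and 200 µg in 200 µl for C57BL/6 mice. *Spalax* was caught in the wild, so it is not an inbred strain, and ages were only estimated, from 2 to over 10 years over all treated animals of the study. Mice were 3 to 4 months old. Tumors were removed once palpable growth had reached a set size, and RNA came from a piece of each. The injected side (IS) is the tumor and the uninjected side (UIS) is the neck muscle of the other side of the same animal. By the labels, every UIS library thus came from a treated, tumor-bearing animal, though the mouse column M1018H matches no labelled animal. Animals are named by their numbers, with Sp for *Spalax* and M for mouse. The females Sp600 and Sp976 carried benign granulomas, taken out at 14 and 16 months from the injection. The female Sp2240 and the male Sp2230 carried fibrosarcomas, taken out at 18 and 30 months. The male mice M512, M1023 and M1019 carried fibrosarcomas, taken out at 11, 12 and 14 weeks.

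MicroRNAs are cut from hairpin precursors, and each hairpin can give a mature strand from its 5' arm (-5p) and from its 3' arm (-3p). A mature strand guides a silencing complex to messenger RNAs, mainly through the bases near its 5' end. miR-322, the mouse counterpart of human miR-424, and miR-503 belong with the miR-15 and miR-16 family, which is known for restraining cell cycle genes, and in muscle they are known for promoting cell cycle exit as myoblasts differentiate. miR-351 belongs with the miR-125 family. miR-542 and the miR-450 microRNAs are neighbors without that sequence kinship.

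The hairpins are shown because they hold the relationships that divide the cluster into families. On GRCm38 (GENCODE M21) the 7 hairpins lie in 6353 bp of the minus strand, chrX:53047997-53054349, and no annotated gene overlaps any of them. The nearest annotated gene upstream is C430049B03Rik, a processed transcript of the same strand whose near end lies 696 bp away. The long intergenic RNA Gm28730 lies inside the span, and the nearest gene downstream is Hprt at 26337 bp. In order of transcription the hairpins are Mir322 (chrX:53054255-53054349), Mir503 (chrX:53053984-53054054), Mir351 (chrX:53053255-53053353), Mir542 (chrX:53049403-53049487), Mir450-2 (chrX:53048299-53048367), Mir450-1 (chrX:53048154-53048244) and Mir450b (chrX:53047997-53048078). A relative of each family follows them, namely Mir16-1 (chr14:61631880-61631972, minus strand, within Dleu2) and Mir125a (chr17:17830812-17830879, plus strand, within Spaca6). Sequences are the GENCODE transcripts in DNA letters, 5' to 3'. Capitals mark the longest run of letters shared by the hairpins of a family, and Mir542 has no family here.
Mir322: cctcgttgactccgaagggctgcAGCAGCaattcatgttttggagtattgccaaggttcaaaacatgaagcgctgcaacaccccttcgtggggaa
Mir503: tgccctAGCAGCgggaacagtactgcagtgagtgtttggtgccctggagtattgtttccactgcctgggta
Mir351: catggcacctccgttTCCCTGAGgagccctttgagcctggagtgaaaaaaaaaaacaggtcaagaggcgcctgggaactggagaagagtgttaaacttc
Mir542: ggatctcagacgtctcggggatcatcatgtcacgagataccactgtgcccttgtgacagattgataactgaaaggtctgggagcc
Mir450-2: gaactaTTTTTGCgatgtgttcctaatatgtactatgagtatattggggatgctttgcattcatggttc
Mir450-1: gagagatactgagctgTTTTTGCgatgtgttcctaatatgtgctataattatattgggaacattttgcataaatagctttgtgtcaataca
Mir450b: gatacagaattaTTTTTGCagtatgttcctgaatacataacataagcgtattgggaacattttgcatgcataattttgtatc
Mir16-1: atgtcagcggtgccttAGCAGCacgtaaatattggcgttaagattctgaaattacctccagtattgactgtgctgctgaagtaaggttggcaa
Mir125a: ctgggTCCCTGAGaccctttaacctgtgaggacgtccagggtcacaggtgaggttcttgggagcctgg

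AGCAGC, the run of Mir322 and Mir503, stands in all 8 hairpins of the miR-15 and miR-16 family and in 5.68% of the 2201 mouse hairpins of the annotation, read on the hairpin strand only. TCCCTGAG, the run of Mir351, stands in all 4 hairpins of the miR-125 family and in 0.591% of all. TTTTTGC stands in the 3 miR-450 hairpins and in 0.545% of all, and it is the first of 4 shared runs of equal length. Mir450-1 and Mir450-2 share an unbroken run of 25 nt, so miR-450a-5p can come from either hairpin and its reads cannot be divided between them.

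The 14 libraries held between 2034574 and 13982842 microRNA reads, and in each group the IS libraries were the shallower ones. A normalized count is the deposited value, namely reads divided by a size factor for the library. The labels list a UIS library of mouse M1019, but the only unclaimed mouse column is headed M1018H. It is called M1018 here and entered its group without a partner. Muscle microRNAs, all 6 of which had reads in every UIS library, took 35.2 to 37.3% of the reads in *Spalax* UIS and 27.6 to 29.7% in mouse UIS. In the IS libraries, labelled muscle tissue as well, they took 0.00953 to 0.165% in granulomas, 0.0112 to 0.0132% in *Spalax* fibrosarcomas and 0.0100 to 3.92% in mouse fibrosarcomas, with miR-208b-3p at 0 in Sp2240 and miR-206-3p at 0 in Sp976. All 6 were called lower in granulomas and in *Spalax* fibrosarcomas, but only 2 of 6 in mice. Of all microRNAs tested, 22.8%, 22.1% and 25.6% were called lower in these comparisons. Leukocyte microRNAs (5 of 5 detected) took 0.0621 to 0.112% of the reads over all UIS libraries and 0.341 to 2.39% over all IS libraries, and fibroblast microRNAs (5 of 5) took 2.15 to 4.60% and 4.19 to 13.2%. Of the leukocyte list 3 were called higher and 1 lower in granulomas, 3 higher in *Spalax* fibrosarcomas and 2 higher in mice. Of all microRNAs tested, 25.5%, 15.2% and 32.2% were called higher there. Within the fibroblast list miR-199a-3p, miR-199a-5p and miR-214-3p were called higher in granulomas and in mice and not in *Spalax* fibrosarcomas, while miR-143-3p and miR-145a-5p were called lower in all 3 comparisons. Endothelial microRNAs (2 of 2) took 0.323 to 1.096% at the UIS and 0.343 to 1.64% at the IS, and both were called lower in all 3. Red cell microRNAs (3 of 3) took 1.46 to 18.0% and 0.263 to 3.31%, and epithelial microRNAs 0.000476 to 0.0180% and 0.00229 to 0.0234%. In bulk tissue, more cells of a type and more RNA per cell cannot be told apart, and the part of this change of tissue in the results below was not tested.

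The cluster was a minor fraction of the microRNA reads at the uninjected side and a much larger one in every tumor. Its 13 members together took 0.0166% (animal Sp600) and 0.00845% (Sp976) of the reads in granuloma UIS, against 0.332% and 0.536% in the granulomas. In *Spalax* with fibrosarcomas they took 0.0115% (Sp2230) and 0.0142% (Sp2240) at the UIS and 0.281% and 0.457% at the IS. In mice they took 0.0653% (M1018), 0.0540% (M1023) and 0.0190% (M512) at the UIS and 0.707% (M1019), 0.617% (M1023) and 1.97% (M512) at the IS. Every IS share was above every UIS share, also across groups. A rise in share was not particular to the cluster. The 5 relatives of miR-322 and miR-503 named below took 0.695 to 0.858% at the UIS and 2.12 to 6.72% at the IS. With values scaled to library totals, the typical microRNA rose as well. Its log2 change was 1.90 in granulomas, 1.403 in *Spalax* fibrosarcomas and 2.58 in mice (medians). For the members these medians were higher, at 5.04, 4.56 and 4.20. miR-322-5p ranked 79th to 144th among all microRNAs in the UIS libraries and 44th to 74th in the IS libraries.

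**Figure D1:**
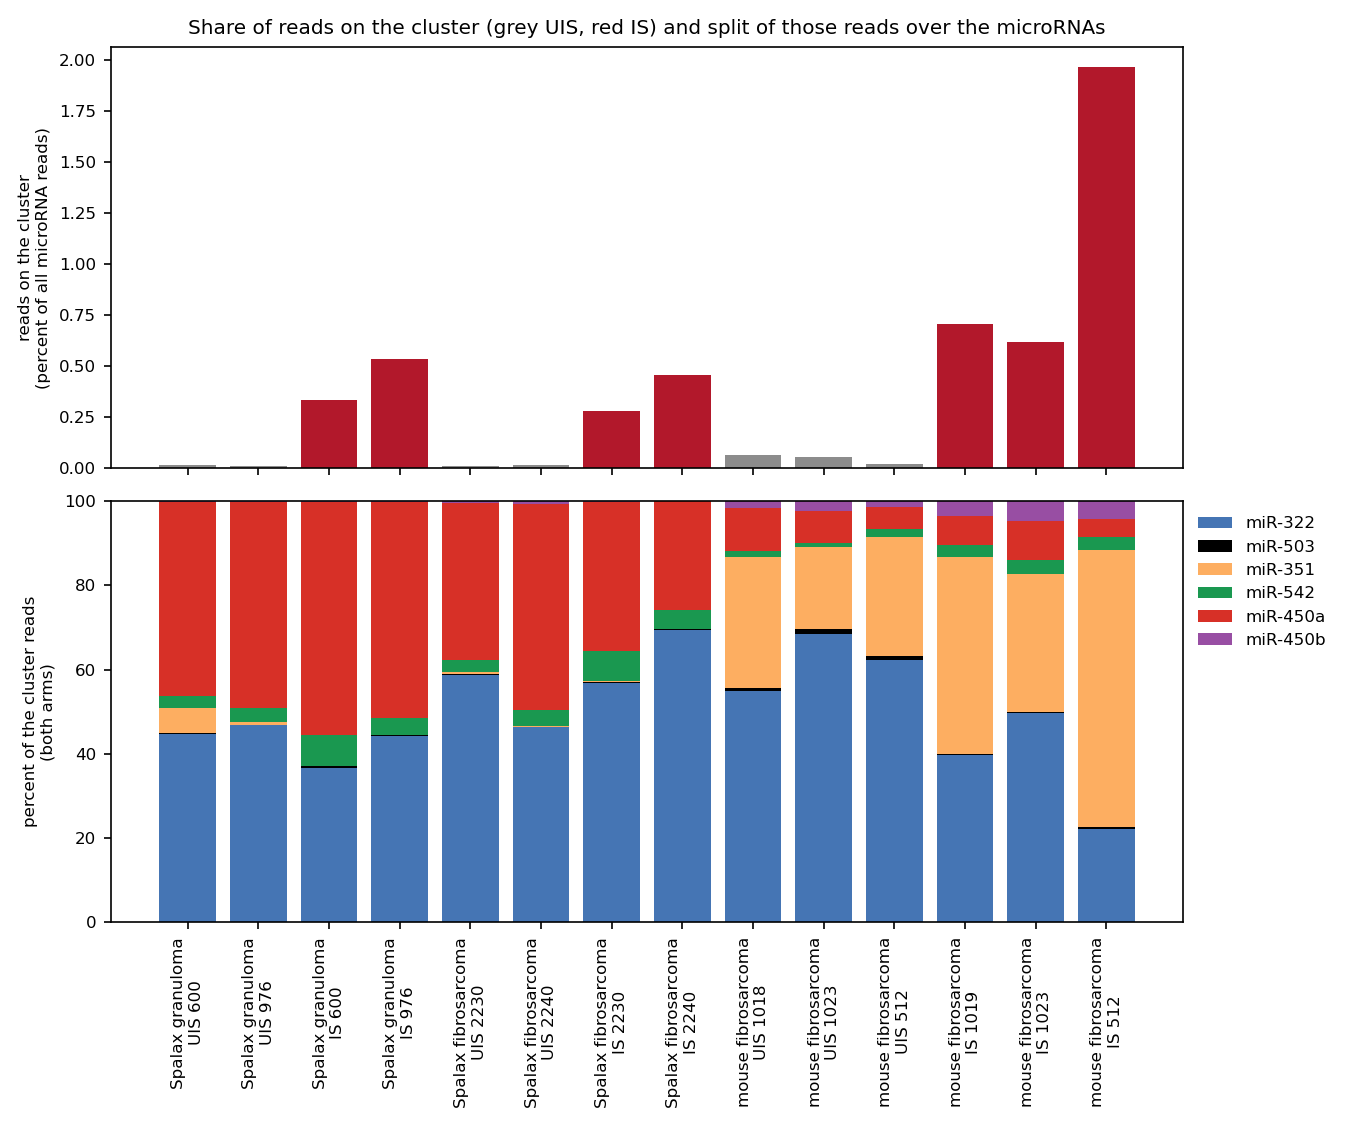
Upper panel, bars: percent of all microRNA reads on the 13 members in each of the 14 libraries, grey for UIS and red for IS. Lower panel: the same reads divided over the microRNAs, both arms summed. Every IS bar stands above every UIS bar, from 0.281 to 1.97% against 0.00845 to 0.0653%, and miR-351 fills 19.4 to 66.0% of the cluster in mice and at most 6.05% in *Spalax*.

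The make-up of the cluster is given next as shares of its own reads. In *Spalax*, miR-322 (both arms) held 44.8 to 58.7% of the cluster reads at the UIS and 36.6 to 69.4% at the IS, and miR-450a held 37.3 to 49.1% and 25.7 to 55.2%. In mice, miR-322 held 54.9 to 68.5% at the UIS and 22.1 to 49.6% at the IS, while miR-351 held 19.4 to 31.0% and 32.7 to 66.0%, and miR-450a only 5.31 to 10.2% and 4.19 to 9.17%. These are shares of reads among strands of near-equal length, and ligation can favor some strands over others. The reads of *Spalax* were assigned to mouse names, so a lower level and a sequence that differs from the mouse cannot be told apart.

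The change at the injected side was tested with limma on log2(normalized count + 1) over all microRNAs that passed a filter on low values, with Benjamini-Hochberg adjustment and a threshold of 0.05. In granulomas 8 members passed the filter and all 8 were called, 7 higher and 1 (miR-351-5p) lower, beside 48.3% of all 447 microRNAs called, 25.5% higher and 22.8% lower. In *Spalax* fibrosarcomas 6 of the 8 were called, all higher, beside 37.4% of all, 15.2% higher. In mouse fibrosarcomas 8 of 11 were called, all higher, beside 57.8% of all 547 microRNAs, 32.2% higher. The median log2 fold change of the members tested was 3.24, 2.89 and 1.94 in the 3 comparisons, and that of all microRNAs tested was 0.13, -0.23 and 0.21. Some members passed the filter only through the side where they were high. These were miR-503-5p and miR-450b-3p in *Spalax* and miR-503-5p, miR-351-3p and miR-450b-3p in mice, through the IS, and miR-351-5p in *Spalax*, through the UIS. Of members at 10 or more in every library of the species, 5 of 5 were called higher in granulomas, 5 of 5 in *Spalax* fibrosarcomas and 5 of 8 in mouse fibrosarcomas. The other 3 mouse members had positive changes that missed the threshold. Of all microRNAs at 10 or more in every library, 21.2% of 278, 18.3% of 278 and 26.9% of 394 were called higher. Scaled to library totals instead, the median of all microRNAs moved to 1.90, 1.403 and 2.58, with 252 higher and 50 lower calls in granulomas (114 and 102 in the main test), 193 and 41 in *Spalax* fibrosarcomas (68 and 99) and 373 and 31 in mice (176 and 140). The members' medians were then 5.04, 4.56 and 4.20, and thus still above those of all microRNAs. Members called were 7 of 8, 7 of 8 and 11 of 11, all higher, beside 302 and 234 of 447 and 404 of 547 microRNAs. The granuloma call of miR-351-5p was lost, and miR-450b-3p was gained in *Spalax* fibrosarcomas. In mice miR-322-3p, miR-503-3p and miR-542-5p were gained. With the animal as a replicate block, 8 of 8 members were called in granulomas beside 47.0% of all microRNAs, 6 of 8 in *Spalax* fibrosarcomas beside 33.8% and 6 of 11 in mice beside 41.5%. Among mice only M1023 and M512 have both sides under their own number, so the block fit takes the mouse change from these animals alone. The mouse calls lost under the block were those of miR-503-5p and miR-450b-3p. Both were lost without a filter as well, and that of miR-503-5p also with a pseudocount of 0.1 and with size factors without muscle microRNAs. Leaving out 1 library lowered the share of all microRNAs called to as little as 28.9% in granulomas (without UIS Sp976), 17.2% in *Spalax* fibrosarcomas (without UIS Sp2240) and 38.9% in mice (without UIS M1023), with 8 of 8, 4 of 8 and 4 of 11 members called there. Only 2 animals stood in each *Spalax* group and 3 in each mouse group, and p-values measure the spread between these samples.

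**Figure D2:**
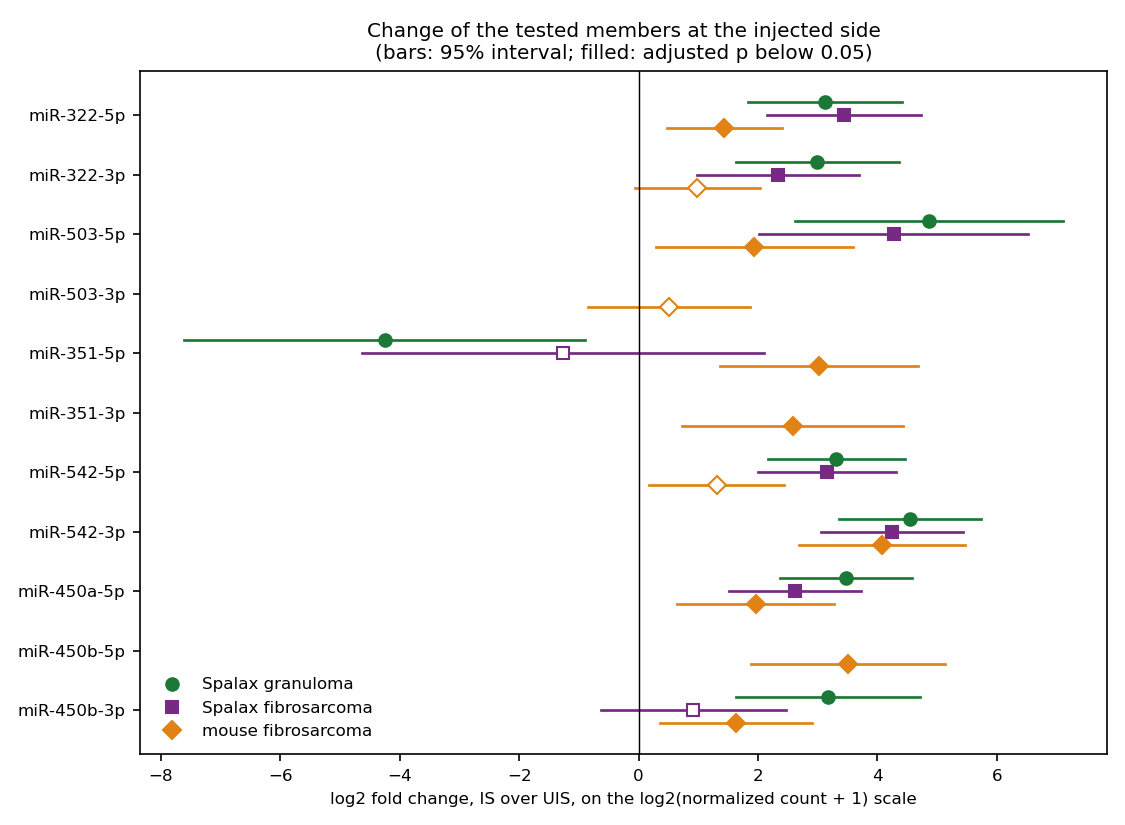
Log2 fold change of each tested member, IS over UIS, with its 95% interval, in granulomas (green), *Spalax* fibrosarcomas (purple) and mouse fibrosarcomas (orange). Filled symbols passed an adjusted p of 0.05. miR-542-3p lies between 4.08 and 4.54 in all 3 comparisons, while miR-351-5p lies at 3.02 in mice and at -4.25 in granulomas.

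miR-322-5p is the main product of Mir322, the first hairpin of the cluster. Its normalized counts in granuloma-bearing *Spalax* were 1112 (Sp600) and 587 (Sp976) at the UIS and 4915 and 10159.8 at the IS. In *Spalax* with fibrosarcomas they were 903 (Sp2230) and 876 (Sp2240) at the UIS and 6745 and 13704 at the IS. All 4 tumors thus stood above all 4 muscles. In mice the UIS values were 4441 (M1018), 5765 (M1023) and 2414 (M512), and the IS values were 8314 (M1019), 11043 (M1023) and 13273 (M512), again without overlap. Groups that did not overlap in this direction made up 41.4% of all microRNAs tested in granulomas, 32.2% in *Spalax* fibrosarcomas and 36.6% in mice, and 36.5, 36.9 and 30.2% in the opposite direction. The log2 fold change was 3.13 (SE 0.55, limma adjusted p = 0.00355) in granulomas, 3.43 (SE 0.55, adjusted p = 0.00301) in *Spalax* fibrosarcomas and 1.43 (SE 0.41, adjusted p = 0.0219) in mouse fibrosarcomas. The mouse call did not hold without the UIS library M1018 (adjusted p = 0.0501), UIS M512 (adjusted p = 0.0523) or IS M1023 (adjusted p = 0.0607), with log2 fold changes of 1.52, 1.08 and 1.41.

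The other strand, miR-322-3p, was the scarcer one in every library. It was read at 105 (Sp600) and 34.3 (Sp976) in granuloma UIS and at 509 and 465 in the granulomas. In *Spalax* fibrosarcomas it went from 50.6 (Sp2230) and 48.5 (Sp2240) to 222 and 289. It rose by a log2 fold change of 3.00 (SE 0.58, limma adjusted p = 0.00538) and 2.33 (SE 0.58, adjusted p = 0.0172). In mice the UIS values were 1133, 1064 and 763 and the IS values 1422, 1453 and 3445, and the difference of 0.98 (SE 0.44) missed the threshold (adjusted p = 0.0946). Scaled to library totals, the mouse difference was 3.36 and passed (limma adjusted p = 0.00122). In *Spalax* fibrosarcomas the call was lost without UIS Sp2230, UIS Sp2240 or IS Sp2240 (adjusted p = 0.0898, 0.0989 and 0.0553).

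miR-503-5p comes from the hairpin next to Mir322, and it was close to absent from *Spalax* muscle. There were 2 reads (Sp600) and 0 reads (Sp976) in granuloma UIS, against 47 and 42 in the granulomas, or 58.7 and 53.2 normalized counts. Fibrosarcoma-bearing *Spalax* had 3 reads (Sp2230) and 0 reads (Sp2240) at the UIS and 53 and 26 at the IS. The ratio of the summed rates was 41.8 in granulomas with a 95% counting interval of 11.2 to 350.2, and 20.2 in *Spalax* fibrosarcomas with an interval of 6.65 to 99.9. Such intervals cover counting error only. The fitted log2 fold changes, 4.86 (SE 0.96, limma adjusted p = 0.00579) and 4.27 (SE 0.96, adjusted p = 0.0117), depend on the pseudocount at so few reads, and that of fibrosarcomas lost its call without UIS Sp2240 or IS Sp2240 (adjusted p = 0.0812 and 0.0553). The *Spalax* fibrosarcoma call was also lost with a pseudocount of 0.1 (limma adjusted p = 0.0575). In mice the strand stood at 16.3, 15.1 and 9.61 at the UIS and at 37.0 (M1019), 27.5 (M1023) and 153 (M512) at the IS, a log2 fold change of 1.94 (SE 0.70, adjusted p = 0.0486). Most of that mouse value came from tumor M512: without it the log2 fold change was 1.20 (adjusted p = 0.0506). The call was also lost without any other mouse library except the IS library M1023.

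miR-503-3p was measured only in mice. Its UIS values of 62.4 (M1018), 106 (M1023) and 34.6 (M512) overlapped its IS values of 64.6 (M1019), 70.1 (M1023) and 150.02 (M512), and its log2 fold change was 0.52 (SE 0.57, limma adjusted p = 0.458). It was the single member tested in mice whose sides overlapped in normalized counts. As a percent of reads its sides did not overlap, at 0.000129 to 0.000572% at the UIS and 0.00172 to 0.00391% at the IS. Scaled to library totals, its log2 fold change was 2.86 and passed (limma adjusted p = 0.00621). No *Spalax* library held a read of it. A count of 0 allows up to 3 reads, or 2.3e-05 to 0.000147% of the reads of a *Spalax* library.

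miR-351 was read at very different levels in the species. In mice miR-351-5p, a relative of miR-125, was abundant and rose: it stood at 3141 (M1018), 1931 (M1023) and 1443 (M512) at the UIS and at 11480.0 (M1019), 8217 (M1023) and 49713 (M512) at the IS. The lowest tumor was above the highest muscle. The log2 fold change was 3.02 (SE 0.70, limma adjusted p = 0.0106), and it passed without any of the 6 libraries in turn (adjusted p of 0.00745 to 0.0449). miR-351-3p, its partner strand, rose along with it in mice, from 5 (M1018), 1 (M1023) and 2 (M512) reads at the UIS to 40 (M1019), 21 (M1023) and 68 (M512) reads at the IS (log2 fold change 2.58, SE 0.78, adjusted p = 0.0273). That call was lost without UIS M1023 or UIS M512 (adjusted p = 0.0890 and 0.0672).

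In *Spalax* miR-351-5p was nearly unread. The 4 tumors held 1 (Sp600), 1 (Sp976), 10 (Sp2230) and 0 (Sp2240) reads of it, and the 4 muscles held 116, 8, 9 and 2. The muscle of animal Sp600 thus stood far from the others, at 164 normalized counts against 10.2, 10.8 and 2.15. The log2 fold change was -4.25 in granulomas (SE 1.44, limma adjusted p = 0.0422) and -1.27 in fibrosarcomas (SE 1.44, adjusted p = 0.522), where the ratio of summed rates was 0.696 with a counting interval of 0.265 to 1.81. The granuloma call rests on that library: without it the log2 fold change was -2.31 (adjusted p = 0.233). It was also lost without the IS library of Sp600 or of Sp976 (adjusted p = 0.109 and 0.0970), while without the UIS library of Sp976 the value was -6.19 and passed. miR-351-3p had no read in any of the 8 *Spalax* libraries.

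miR-542 lies between Mir351 and the miR-450 hairpins, and its 3p strand passed the threshold in all 3 comparisons. miR-542-3p was at 41.1 (Sp600) and 26.7 (Sp976) in granuloma UIS and at 907 and 697 in the granulomas. In fibrosarcoma-bearing *Spalax* it was at 25.3 (Sp2230) and 51.7 (Sp2240) at the UIS and at 683 and 723 at the IS. In mice it was at 69.2 (M1018), 61.8 (M1023) and 36.5 (M512) at the UIS and at 538 (M1019), 722 (M1023) and 2031 (M512) at the IS. The 4 *Spalax* tumors lay within 683 to 907, and no tumor came near the muscle values of its species. The log2 fold changes were 4.54 (SE 0.51, limma adjusted p = 0.000633), 4.24 (SE 0.51, adjusted p = 0.000969) and 4.08 (SE 0.59, adjusted p = 0.00235) in granulomas, *Spalax* fibrosarcomas and mouse fibrosarcomas. Each passed the threshold under all alternatives tried and without any library in turn.

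miR-542-5p changed less. It went from 31.2 (Sp600) and 17.8 (Sp976) to 210 and 281 in granulomas and from 18.1 (Sp2230) and 24.8 (Sp2240) to 198 and 195.3 in *Spalax* fibrosarcomas. The log2 fold changes were 3.31 (SE 0.49, limma adjusted p = 0.0018) and 3.16 (SE 0.49, adjusted p = 0.00283). In mice it went from 71.9 (M1018), 43.9 (M1023) and 59.6 (M512) to 107 (M1019), 113 (M1023) and 243 (M512), without overlap, and the log2 fold change of 1.31 (SE 0.48) just missed the threshold (adjusted p = 0.0505). It passed under 5 of 8 alternative settings, among them edgeR's quasi-likelihood test (adjusted p = 0.0481) and DESeq2's Wald test (adjusted p = 0.0146). The highest adjusted p under these settings was 0.111. Without each of the 6 libraries in turn it missed the threshold in limma (adjusted p of 0.0597 to 0.166).

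miR-450a-5p, which Mir450-1 and Mir450-2 both encode, was the most read member in the granulomas. It stood at 1249.9 (Sp600) and 649 (Sp976) at their UIS and at 8168 and 12285 in the tumors. In fibrosarcoma-bearing *Spalax* it stood at 607 (Sp2230) and 978 (Sp2240) at the UIS and at 4333 and 5181 at the IS. Mice had 1028 (M1018), 741 (M1023) and 271 (M512) at the UIS and 1691 (M1019), 2302 (M1023) and 3151 (M512) at the IS. No tumor overlapped the muscle of its group. The log2 fold changes were 3.47 (SE 0.47, limma adjusted p = 0.00127), 2.62 (SE 0.47, adjusted p = 0.00499) and 1.96 (SE 0.56, adjusted p = 0.0219). The mouse call slipped past the threshold without UIS M1023, IS M1023 or IS M512 (adjusted p = 0.0511, 0.0555 and 0.0535). The 3' strands of its hairpins were hardly read: miR-450a-1-3p had 29 reads in the 6 mouse libraries and 1 in *Spalax*, and miR-450a-2-3p had 13 in mice and 0 in *Spalax*, so neither was tested.

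The reads assigned to the last hairpin were divided differently over its strands in mice and in *Spalax*. In mice miR-450b-5p was the main strand, at 159 (M1018), 225 (M1023) and 59.6 (M512) at the UIS and at 852 (M1019), 1180.1 (M1023) and 3195 (M512) at the IS, a log2 fold change of 3.51 (SE 0.68, limma adjusted p = 0.00588) that passed without any library in turn. In *Spalax* it had 4 reads in 2 libraries and was not tested. Less use of this strand and a sequence that the mouse name does not catch cannot be told apart. miR-450b-3p was read in both species. It went from 7.09 (Sp600) and 2.54 (Sp976) to 36.2 and 62.1 in granulomas (log2 fold change 3.18, SE 0.66, adjusted p = 0.00706). In *Spalax* fibrosarcomas it had 7.22 (Sp2230) and 11.8 (Sp2240) at the UIS and 22.3 and 15.2 at the IS (0.92, SE 0.66, adjusted p = 0.308). Scaled to library totals it was called there, at 2.50 (limma adjusted p = 0.0143). In mice it went from 16.3 (M1018), 17.8 (M1023) and 5.76 (M512) to 33.7 (M1019), 34.7 (M1023) and 52.2 (M512), a log2 fold change of 1.63 (SE 0.54, adjusted p = 0.0358) that missed the threshold without each of the 6 libraries in turn (adjusted p of 0.0524 to 0.0767).

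**Figure D3:**
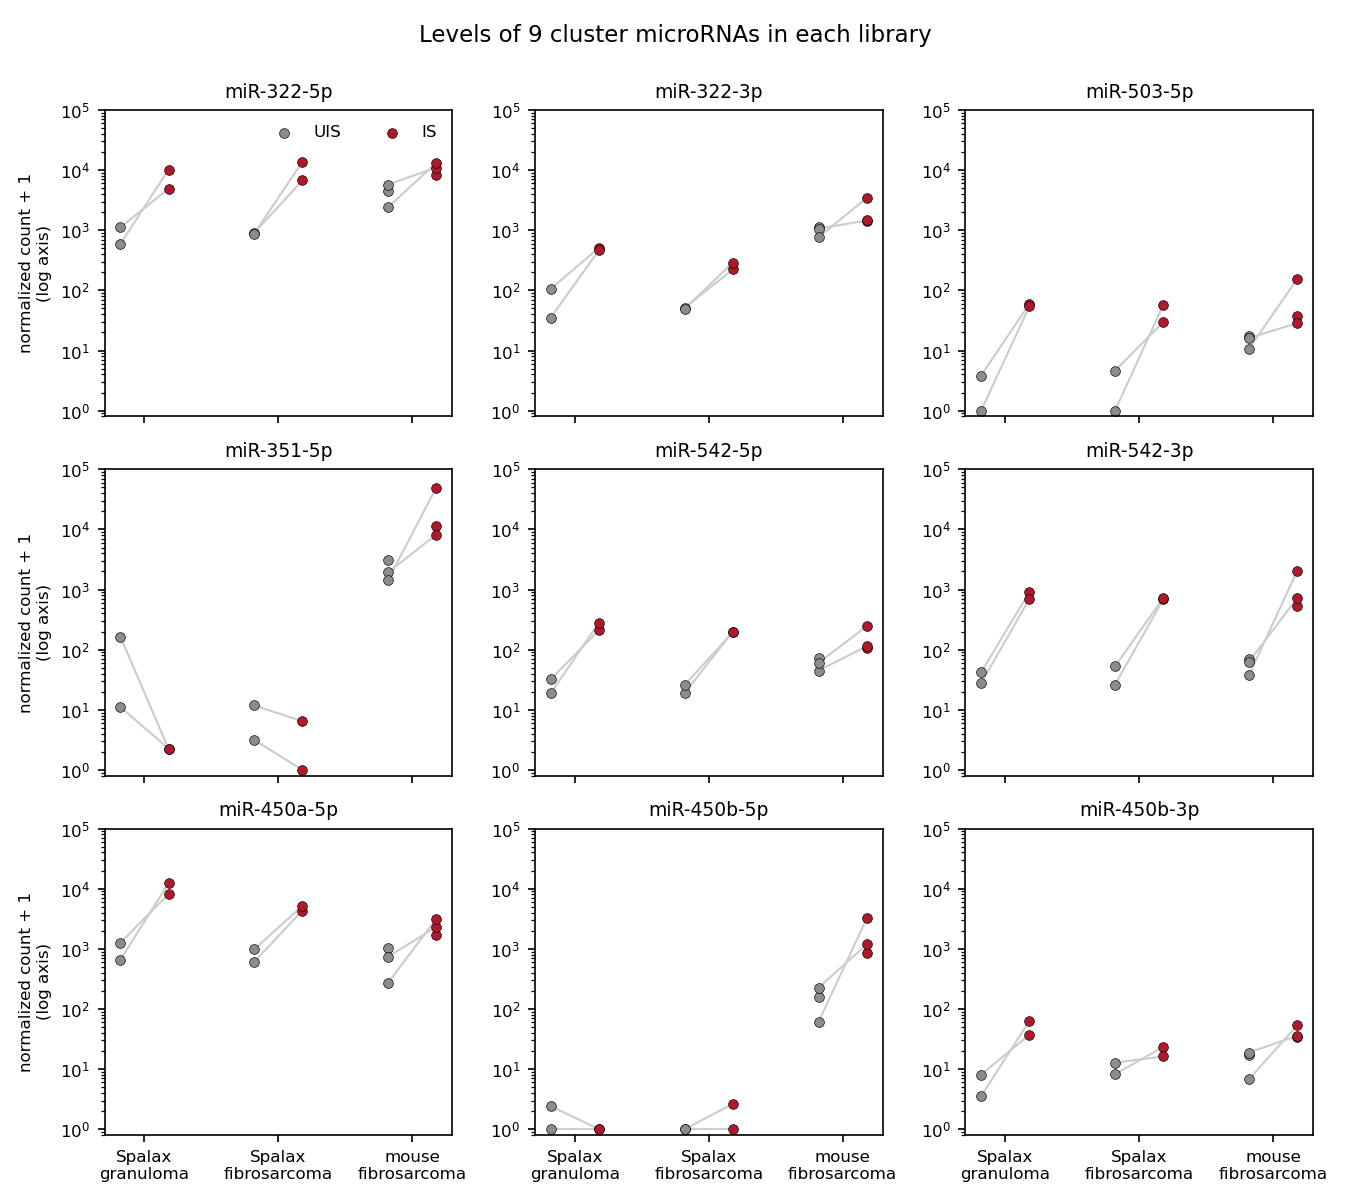
Normalized count + 1 (log axis) of 9 members in each library, grey for UIS and red for IS, with lines between the sides of an animal. The red points lie above the grey ones of their group in every panel but that of miR-351-5p, where the normalized counts lie lower in each *Spalax* animal (in Sp2230 only under the size factors), and that of miR-450b-5p, which was hardly read in *Spalax*.

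In 6 animals both sides stood under the animal's own number. In each of these 6, miR-322-5p, miR-322-3p, miR-503-5p, miR-542-5p, miR-542-3p, miR-450a-5p and miR-450b-3p were higher in the tumor than in the muscle. How many of all microRNAs did the same was not counted. miR-503-5p and miR-450b-3p had passed the filter only through the IS, so their direction was partly set beforehand. In Sp2240 miR-450b-3p had 11 reads at the UIS and 7 in the shallower tumor library, a fold of 1.28 in normalized counts. miR-351-5p was higher in the tumor of both mice. Its normalized count was lower in the tumors of all 4 *Spalax*, but in Sp2230 this rests on the size factors: reads went from 9 to 10, and as a percent of reads the tumor was the higher one (0.000125 against 7.64e-05). The size of the change varied between animals. In mouse M1023 it was small, with a fold of 1.92 for miR-322-5p, 1.82 for miR-503-5p and 11.7 for miR-542-3p, and in mouse M512 these folds were 5.499, 16.0 and 55.6. In *Spalax* the fold of miR-322-5p was 4.42 in animal Sp600, 17.3 in Sp976, 7.47 in Sp2230 and 15.6 in Sp2240, so that the animals of both tumor types covered overlapping ranges.

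**Figure D4:**
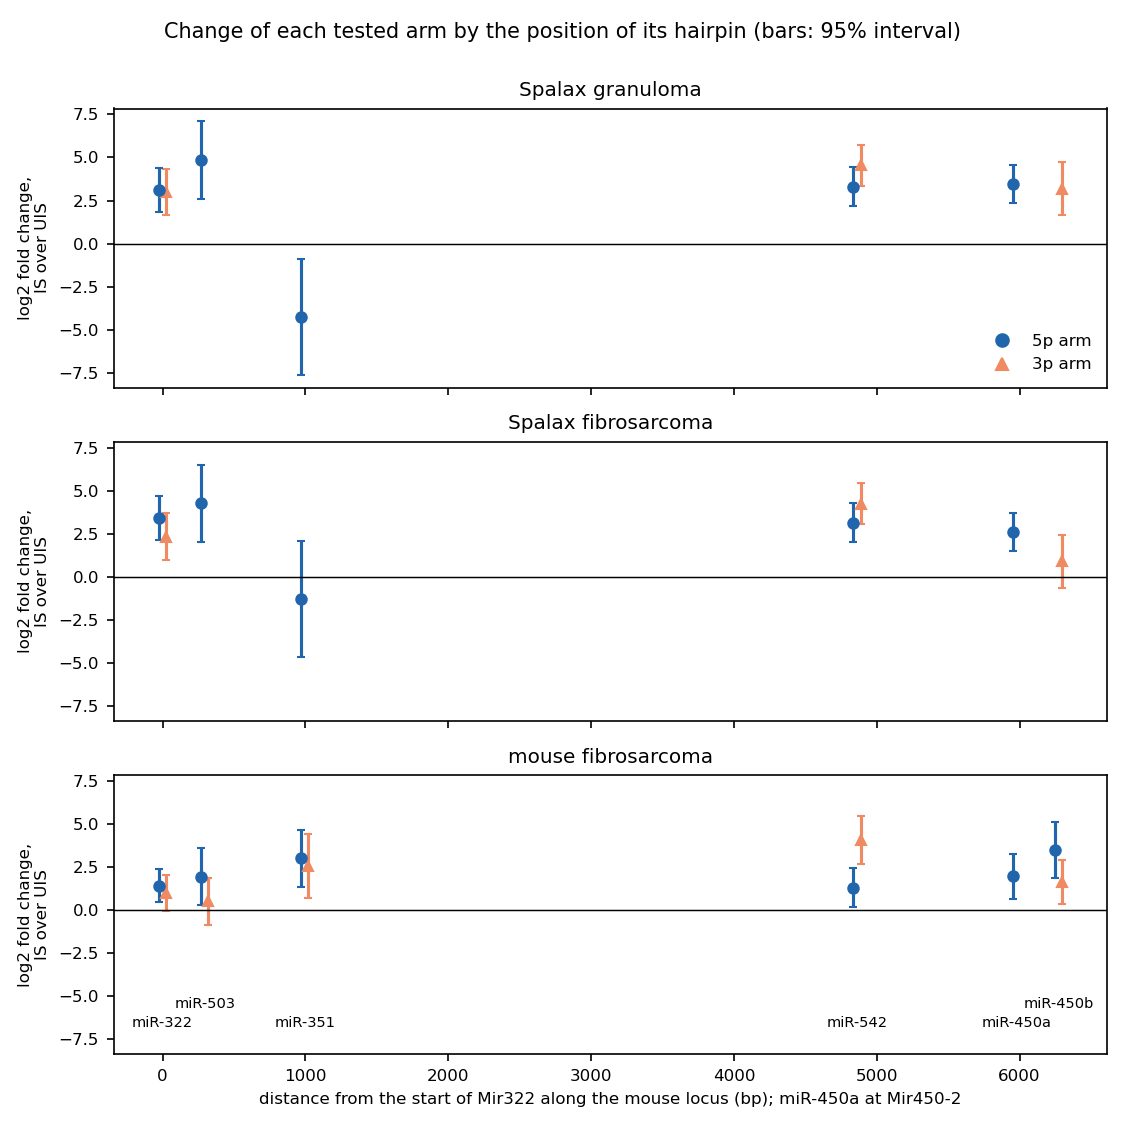
Log2 fold change of each tested strand, IS over UIS, with its 95% interval, against the distance of its hairpin from the start of Mir322 on the mouse X chromosome in bp, with the 5p strand as a circle and the 3p strand as a triangle. The symbols stand above 0 from Mir322 at 0 bp to the miR-450 hairpins at 5982 bp and beyond, except at Mir351 (996 bp), where those of *Spalax* lie below 0 and those of mouse above it.

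Along the locus, in granulomas the log2 fold changes of the 5p strands were 3.13 at Mir322, 4.86 at Mir503, 295 bp further on, 3.31 at Mir542, 4862 bp on, and 3.47 at miR-450a-5p. miR-351-5p, between Mir503 and Mir542, was the exception at -4.25. The distances are those of the mouse locus, and the order of the hairpins in *Spalax* was not analysed here.

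Granulomas and *Spalax* fibrosarcomas were then compared directly. The difference of the changes, granuloma less fibrosarcoma, was called for none of the 8 members, beside 3.8% of all 447 microRNAs (3.8% higher and 0% lower). It was -0.31 for miR-322-5p (95% interval -2.13 to 1.52), 0.59 for miR-503-5p (-2.59 to 3.77), 0.85 for miR-450a-5p (-0.71 to 2.42) and 0.30 for miR-542-3p (-1.37 to 1.98). The largest was that of miR-351-5p, -2.98 (-7.74 to 1.77). The background itself was unsteady, since limma called 0 microRNAs without a filter, with a pseudocount of 0.1 or without any of 6 of the 8 libraries, with 74 to 115 at an unadjusted p below 0.05 in those fits. miR-450b-3p had the lowest p among the members (difference 2.26, interval 0.08 to 4.44, unadjusted p = 0.0439, limma adjusted p = 0.216). Between the tumors themselves, granuloma against fibrosarcoma, 18.8% of all microRNAs were called (15.4% higher and 3.36% lower in granulomas) and none of the 8 members. Fitted on these 4 libraries alone, 4 of 447 were called, all higher, and edgeR called 66 higher and 4 lower, again without a member. The log2 difference was 1.08 for miR-450a-5p (interval -0.03 to 2.19) and 1.32 for miR-450b-3p (-0.22 to 2.86), and those of the other 6 lay between -0.44 and 0.94. Between the uninjected sides of the same animals 0 of 447 microRNAs passed limma's adjustment and 5 had an unadjusted p below 0.05, none of them a member. The largest member difference there was 2.81 for miR-351-5p (interval -0.55 to 6.18, unadjusted p = 0.0889). edgeR and DESeq2 also called 0 there, with 7 and 10 at an unadjusted p below 0.05. The widths of these intervals leave room for differences of several fold.

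Mouse and *Spalax* fibrosarcomas were compared within the table that holds both species, with 5 mouse libraries. Of 11 members tested 1 was called, miR-351-3p, beside 26% of all 607 microRNAs, 20.3% with a larger and 5.77% with a smaller log2 change in mice. The fitted difference was 2.99 on the log2 scale (SE 0.96, limma adjusted p = 0.0436), but no *Spalax* library held a read of it, so this is its mouse change set against 0 and no measure of a change in *Spalax*. It was not called by edgeR (adjusted p = 0.99983), without a filter (adjusted p = 0.0708), or without either UIS library of mice or any of the 4 *Spalax* libraries (adjusted p of 0.0552 to 0.135). For miR-351-5p the difference was 4.72 (SE 1.84, adjusted p = 0.0875), and for miR-450b-5p it was 3.08 (SE 1.14, adjusted p = 0.0731). miR-351-5p passed under 2 of 8 alternative settings, DESeq2's Wald test and scaling to library totals. miR-450b-5p passed under the latter only. DESeq2 gave no adjusted p for miR-351-3p. *Spalax* with fibrosarcomas held 11 reads of miR-351-5p at the UIS and 10 at the IS, and 0 and 3 of miR-450b-5p. Both values are thus mainly mouse changes set against few *Spalax* reads. miR-503-3p, also among the 11 members, had no *Spalax* read. miR-322-5p changed by 1.79 less in mice than in *Spalax* (95% interval of the difference -3.47 to -0.11, adjusted p = 0.114), while that of miR-542-3p differed by 0.13 (-1.85 to 2.11, adjusted p = 0.929). On this common scale miR-322-5p was at 1959 to 4349 in the muscles of 2 mice and at 587 to 1112 in those of 4 *Spalax*, and at 6992 to 11820.1 and 4915 to 13704 in the tumors.

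Both strands of a hairpin are cut from the same precursor, and the ratio of the arms within a library does not depend on how libraries are scaled. It could be tested for miR-322 and miR-542, which had 10 or more reads of each arm in both libraries of all 6 paired animals. There were 0.759 (Sp600), 0.667 (Sp976), 0.714 (Sp2230), 0.479 (Sp2240), 0.711 (mouse M1023) and 1.63 (mouse M512) reads of miR-542-5p per read of miR-542-3p at the UIS. At the IS there were 0.231, 0.404, 0.290, 0.270, 0.156 and 0.1198. The ratio was lower in the tumor in 6 of 6 animals, by a mean of -1.75 on the log2 scale (SD 1.13), and the libraries that could not be paired stood with their groups, at 1.04 in UIS M1018 and 0.199 in IS M1019. The exact two-sided sign-flip test gave p = 0.0312, the smallest that 6 pairs allow, and an adjusted p of 0.0625 over the 2 hairpins, which misses the threshold. For miR-322 the reads of the 5p per 3p strand were 10.6, 17.1, 17.9, 18.1, 5.42 and 3.16 at the UIS and 9.65, 21.9, 30.4, 47.5, 7.60 and 3.85 at the IS. They were higher in the tumor in 5 of 6 animals, by a mean of 0.53 on the log2 scale (SD 0.52, exact p = 0.0625, adjusted p = 0.0625). The ratio of miR-322 was also higher in every *Spalax* library than in every mouse library, 9.65 to 47.5 against 3.16 to 7.60. That difference was not tested. The reads of *Spalax* were assigned to mouse names, so a different use of the arms and a strand that differs from the mouse sequence cannot be told apart.

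**Figure D5:**
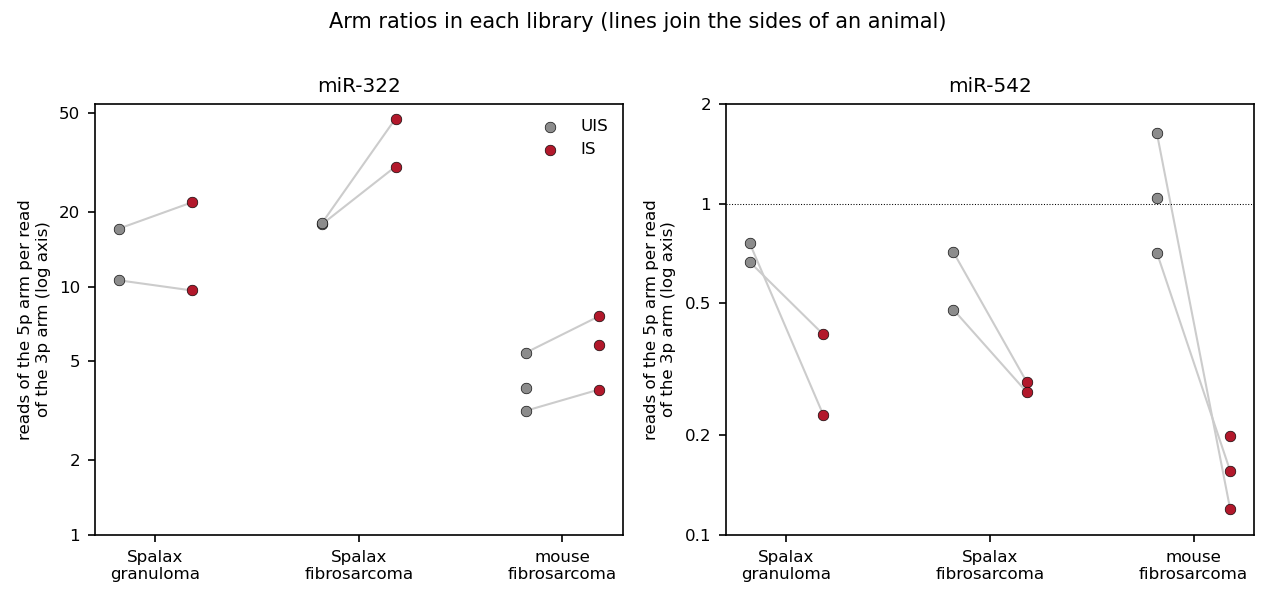
Reads of the 5p strand per read of the 3p strand (log axis) of miR-322 and miR-542 in each library, grey for UIS and red for IS, with lines between the sides of an animal and a dotted line at 1. The ratio of miR-542 falls along every line, from 0.479 to 1.63 at the UIS to 0.1198 to 0.404 at the IS.

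The relatives of miR-322 and miR-503 outside the cluster are given for comparison. Of miR-15a-5p, miR-15b-5p, miR-16-5p, miR-195a-5p and miR-497a-5p, 1 of 5 was called in granulomas, 2 of 5 in *Spalax* fibrosarcomas and 0 of 5 in mice, beside 48.3%, 37.4% and 57.8% of all microRNAs. miR-15b-5p had log2 fold changes of 1.99 (SE 0.42, limma adjusted p = 0.0073), 2.15 (SE 0.42, adjusted p = 0.00675) and 1.26 (SE 0.47, adjusted p = 0.0521). miR-16-5p was called in *Spalax* fibrosarcomas only, at 1.12 (SE 0.28, adjusted p = 0.0165), with 0.29 in granulomas and -0.42 in mice. The other 3 had values between -1.04 and 1.01 and none passed. Of the relatives of miR-351, miR-125b-5p was called in granulomas at 0.79 (SE 0.26, adjusted p = 0.0379), with -0.38 in *Spalax* fibrosarcomas and 0.55 in mice, and miR-125a-5p had 0.02, -0.63 and -0.50 and was not called. These values stand side by side, and differences between microRNAs were not tested.

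Among the 403 microRNAs tested in both species, the one whose 3 log2 fold changes lay nearest to those of miR-322-5p was a member, miR-542-5p, with a root mean square difference of 0.20. The 3 nearest outside the cluster were miR-6240 (0.32), miR-146a-5p (0.40), which is known from inflammation, and miR-6236 (0.49). miR-450a-5p was 7th and miR-322-3p 10th in this order, with miR-503-5p 31st, miR-450b-3p 49th, miR-542-3p 79th and miR-351-5p 350th. The order rests on 3 comparisons of 14 libraries and is given as a description.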

How the data were processed

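Small RNA libraries had been made with the TruSeq kit, and after adaptor trimming the authors assigned reads with mirDeep and tested them with DESeq2. The build and settings of this mapping are not given in the sources used here, and the submitters' processing notes also name GRCm38, TopHat 1.4.1, HTSeq and DESeq without a role. The deposited signal values are reads per microRNA divided by a size factor of the library, as worked out from the values: 100% of them were whole multiples of a step of the library (tolerance 0.001), which gave back the reads. The same 1326 mouse microRNA names served both species. *Spalax* values come from the table of both species and mouse values from the mouse table, which were normalized separately. Species were compared only within the former, which lacks M1018.

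Groups were taken from the sample labels. The members, by a rule on names, and all lists were chosen with earlier results of these data known. Named are all members, 7 relatives of their families, the 3 non-members nearest to miR-322-5p and marker microRNAs as shares of reads. Further microRNAs with the same bases 2 to 8 as a member were not analysed here.

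limma 3.58.1 (R 4.3.3) was run with a mean-variance trend on log2(value + 1), so fold changes of low microRNAs are understated. Values of at least 10 were required in at least 2 libraries (*Spalax*, and the table of both species) or 3 (mouse). The 8 *Spalax* libraries shared a fit. Adjustment was over all microRNAs tested. Arm ratios were compared between the sides of 6 animals by exact sign-flipping. Alternatives were edgeR 4.0.16 and DESeq2 1.42.0 on the recovered reads, other scalings, filters and pseudocounts, no trend, the animal as a replicate block, the compared libraries alone, and leaving out each library. Scripts were tested on simulated data. Sides share an animal by the labels. The deviations of the 2 sides of an animal correlated at 0.0933 in the granuloma animals, 0.00405 in *Spalax* with fibrosarcomas, -0.107 in M1023 and 0.122 in M512. No libraries of a group agreed within sampling noise (lowest chi-square 189.6 per degree of freedom). Depth is given in the report. Counting intervals and floors cover counting error only, since reads carry no molecular identifiers.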

Additional observations from a re-analysis of the deposited data

Results flagged for a closer look

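Each of the 3 results below concerns miR-351. For miR-351-3p, limma's difference of the changes between the fibrosarcomas of the species was 2.994 on the log2 scale (adjusted p = 0.0436). All 8 *Spalax* libraries held 0 reads of it, so *Spalax* gave no change to compare, and the value is that of mice. edgeR gave an adjusted p of 0.99983, and the call was lost without a filter and without any of 6 single libraries. For miR-351-5p, the normalized counts of the paired animals went opposite ways in every animal of 2 pairs of groups, although in Sp2230 the sign depends on the scaling (9 reads at the uninjected side and 10 in the tumor, and a higher percent of reads in the tumor). Granulomas less mouse fibrosarcomas gave a difference of the mean log2 changes of -7.848, which was not tested, since it spans 2 tables. *Spalax* fibrosarcomas less mouse fibrosarcomas gave -4.864 in the same way. The test of that difference within the table of both species, taken as mouse less *Spalax*, gave 4.72 (limma adjusted p = 0.0875). The difference passed with DESeq2's Wald test and when scaled to library totals. In *Spalax* these values rest on 135 reads at the uninjected sides, 116 of them in Sp600, and on 12 reads in the 4 tumors. A lower level in *Spalax* and a sequence that the mouse name does not catch cannot be told apart here.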

How the results depend on the processing

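Counted over the members and the 2 arm ratios, 784 values under alternatives kept their direction and side of the threshold. Another 46 lost a call, 14 gained one and 38 changed sign, and none of these 38 was called. Those that changed sign follow on the log2 scale, and the cause was not tested. For mouse less *Spalax*, edgeR called 0 members (68 of all 607 microRNAs), no filter 0 (192 of 1308) and total scaling 4 (184 of 607), against 1 (158 of 607). DESeq2 called 1 member, miR-351-5p (117 of 607 microRNAs), and gave no adjusted p for miR-351-3p. Total scaling turned miR-542-5p between the uninjected sides to -0.0261, miR-351-5p between the tumors to 0.0441 and miR-450a-5p in mouse less *Spalax* to 0.61. A pseudocount of 0.1 turned miR-351-5p between the tumors to 0.87. The granuloma call of miR-351-5p was lost under total scaling (-2.84, adjusted p = 0.144), no filter (0.0644), the pseudocount of 0.1 (0.0961) and the compared libraries alone (0.0700).

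With the animal as a replicate block, 227 of 547 microRNAs were called in mice against 316, miR-503-5p had 2.34 (adjusted p = 0.105) and miR-450b-3p 1.95 (adjusted p = 0.137), and miR-450a-5p in mouse less *Spalax* turned to 0.10. The block changed no other call of a member. Since the mouse change under the block comes from M1023 and M512 alone, pairing and the loss of libraries cannot be told apart in these mouse values.

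Leaving out single libraries gave 7 to 8 members called in granulomas (28.9 to 43.2% of all microRNAs), 4 to 6 in *Spalax* fibrosarcomas (17.2 to 34.7%), 4 to 6 in mice (38.9 to 58.5%) and 0 to 2 in mouse less *Spalax* (12.7 to 31.6%), where the lack of UIS M512 gave 0 and that of IS M512 2. The change of miR-351-5p in *Spalax* fibrosarcomas ranged from -2.61 to 0.0773. In granuloma less *Spalax* fibrosarcoma, miR-322-5p ranged from -0.83 to 0.22, miR-322-3p from -0.13 to 1.46, miR-503-5p from -0.51 to 1.69, miR-542-5p from -0.24 to 0.54 and miR-542-3p from -0.20 to 0.80. Between the uninjected sides, miR-322-5p ranged from -0.60 to 0.32, miR-322-3p from -0.52 to 1.07, miR-450a-5p from -0.25 to 0.70, miR-503-5p from -1.24 to 0.97, miR-542-5p from -0.24 to 0.54 and miR-542-3p from -0.63 to 0.38. Between the tumors, miR-322-5p ranged from -0.97 to 0.0796, miR-351-5p from -1.51 to 1.17, miR-503-5p from -0.0138 to 0.93 and miR-542-3p from -0.0121 to 0.37. In mouse less *Spalax*, miR-450a-5p ranged from -0.80 to 0.54, miR-503-3p from -0.0847 to 1.39 and miR-542-3p from -0.47 to 0.63. Where an arm was left with 1 library, that library was assumed to vary like the other groups. Without any 1 animal the arm ratio of miR-542 stayed between -1.96 and -1.35, in a design that can then no longer pass. Depth limits members under 3 reads.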
